A study of Mus musculus with 4 samples.

Results

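Cxcr3-positive CD8 T cells are described here as they stood in mouse mammary tumours treated with an interleukin 12 (IL-12) plasmid. They were chosen by their Cxcr3 transcripts: cells of the authors' CD8 T cell class and graph-based cluster 5 in the IL-12 expression library that held at least 1. They numbered 195 of 2488 such cells (7.84%), of 12979 cells in that library and of 17211 in both expression libraries. Each transcript was counted as a unique molecular identifier (UMI), a tag that marks 1 captured RNA molecule. Of the chosen cells, 123 had exactly 1 Cxcr3 UMI, 39 had 2, 19 had 3, 7 had 4, 3 had 5 and 4 had 6, while the 2293 cells just outside the rule had 0. Cxcr3 itself is therefore left out of every comparison. A cell without a Cxcr3 UMI may still carry the transcript, since thinning each cell to 1000 UMIs lowered the positive share to 2.05% and thinning to 3000 UMIs lowered it to 4.52%. In neutrophils of the same library, which should lack Cxcr3, 0.27% of 5908 cells had a UMI at a median depth of 2553 UMIs, and 0.12% did after thinning to 1000.

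CXCR3 is a receptor for the chemokines CXCL9, CXCL10 and CXCL11, which cells make under interferon-gamma and which draw activated T cells into inflamed tissue and tumours. Naive CD8 T cells gain it on activation, and effector and memory cells carry it to different degrees. A T cell clone is the set of cells that share a T cell receptor, and a clone seen in many cells has divided many times. The mouse gene occupies positions 101731535 to 101734269 of chromosome X in mm10, on the minus strand.

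Tumours received an intratumoral injection of IL-12 plasmid or control plasmid with electroporation, and live CD45-positive cells, that is leukocytes, were sorted. Each treatment is a pool of 3 mice, from which 1 library was made for expression, read at the 5′ end of transcripts, and 1 for T cell receptors. The labels differ on the model: the design text names triple-negative tumours, the library names point to the 4T1 line and the growth protocol describes spontaneous tumours after HER2 induction in the mammary tissue of mice aged 1 month. Which mouse a cell came from is not recorded in the files used here, so a clone may belong to 1 mouse and no difference below has a replicate check.

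Each positive cell was set against 4 Cxcr3-negative cells of the same cluster with the closest UMI totals, 780 cells in all. Median depth was then 6527 UMIs in positive and 6541.5 in matched negative cells, with medians of 1624 and 1637 genes per cell. The positive cells held 1397962 UMIs and the matched negative cells 5589867. The mitochondrial share had a median of 1.16% in positive and 1.08% in negative cells, and the genes of the deposited table held 57.5% of the UMIs in positive and 59.2% in negative cells. Levels are summed UMIs per 1000000 UMIs of the set (CPM). Fold changes are CPM ratios, log2 ratios carry a pseudocount of 10 CPM, and brackets give exact 95% intervals, which cover counting error only and not differences between mice. A gene is called higher or lower where its log2 ratio passes a fold of 1.5. Of 87 cell barcodes that both expression libraries share, 2 belonged to positive and 4 to matched negative cells.

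The label was checked against T cell markers. A Cd3e UMI, a subunit of the T cell receptor complex, was seen in 97.9% of positive and 96.5% of matched negative cells. Cd8a, which encodes a chain of the CD8 coreceptor, was seen in 81.5% (75.4 to 86.7) of positive and 91.3% (89.1 to 93.2) of matched negative cells, and its level was 714.6 CPM in positive against 989.5 in negative cells. Cd4, the coreceptor of helper T cells, was seen in 25 positive cells (12.8%) and 40 matched negative cells (5.13%), and in 0.15% of neutrophils. Foxp3, the transcription factor that defines regulatory T cells, was seen in 20 positive cells (10.3%) and 12 matched negative cells (1.54%), against 0.17% of neutrophils. By these transcripts, 151 of the 195 positive cells (77.4%) had Cd8a or Cd8b1 and neither Cd4 nor Foxp3, 16 had Cd4 or Foxp3 without Cd8a or Cd8b1, 15 had both kinds and 13 had none. Of the 780 matched negative cells, 703 had Cd8a or Cd8b1 alone, 22 had Cd4 or Foxp3 alone, 24 had both kinds and 31 had none. The positive set thus held more cells with helper or regulatory T cell transcripts, and results are also given for the 151 cells alone, a restriction chosen after seeing the data.

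Cxcr3-positive cells sat mostly in small clones, whereas matched negative cells sat mostly in large ones. A receptor was recorded for 171 positive and 701 matched negative cells. The positive cells came from clones with a median size of 5 cells in the library (quartiles 1 and 286), against 286 cells (59 and 662) for negative cells. Clones seen in a single cell made up 42.1% (34.6 to 49.9) of the positive cells and 6.85% (5.09 to 8.98) of the negative cells. Clones of 100 or more cells made up 33.3% (26.3 to 40.9) of the positive and 67.3% (63.7 to 70.8) of the negative cells. Clones of 10 or more cells, called expanded here, held 44.4% (36.9 to 52.2) of positive and 84.6% (81.7 to 87.2) of negative cells, a difference of -40.1 percentage points. In the 151 cells with CD8 transcripts alone the expanded shares were 53.2% (44.6 to 61.6) in positive and 87.7% (84.7 to 90.3) in negative cells, and single-cell clones made up 31.9% of positive and 3.91% of negative cells.

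**Figure D1:**
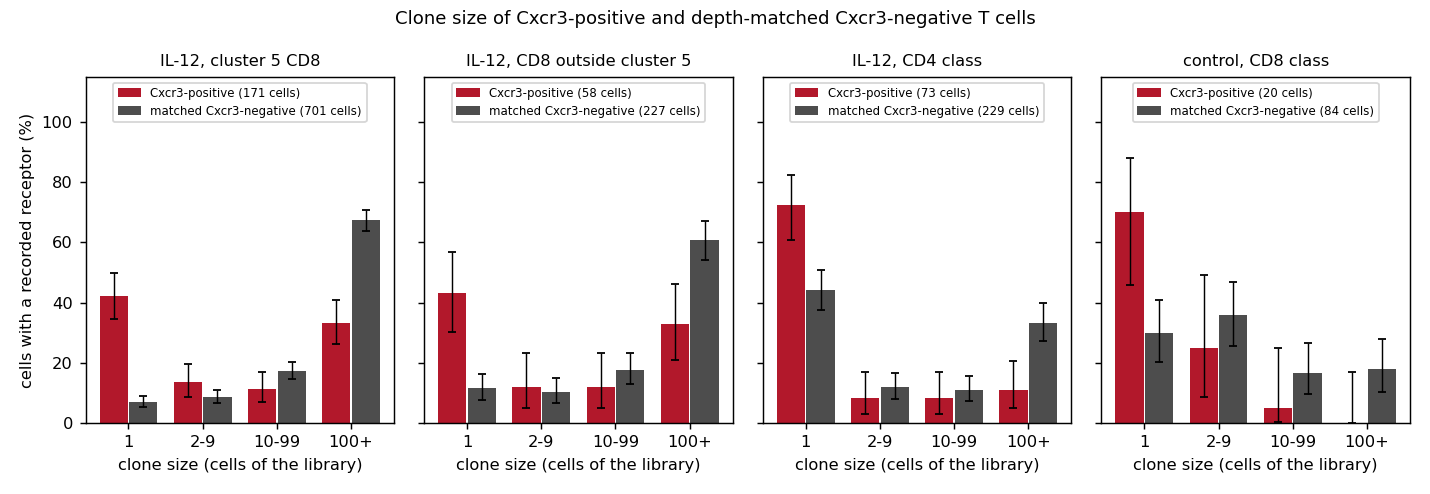
Share of cells with a recorded receptor (%, y axis) by clone size (cells of the same library, x axis) for Cxcr3-positive cells (red) and depth-matched Cxcr3-negative cells (grey) in 4 sets of T cells; bars are shares and whiskers exact 95% intervals. In each set the share in clones of 1 cell is larger in positive cells (in cluster 5 of the IL-12 library 42.1% of positive against 6.85% of negative cells), and the share in clones of 100 or more is smaller (33.3% of positive against 67.3% of negative cells).

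Read the other way, the share of cluster 5 cells with a Cxcr3 UMI was highest in clones of 1 cell. It was 31.2% (25.3 to 37.6) of 231 cells in clones of 1 cell, 11.3% (7.32 to 16.5) of 203 cells in clones of 2 to 9, 5.44% (3.31 to 8.37) of 349 cells in clones of 10 to 99 and 3.91% (2.98 to 5.04) of 1456 cells in clones of 100 or more. The interval of clones of 1 cell stands clear of the others, while neighbouring classes from 2 to 9 cells upward overlap. These intervals treat every cell as separate, which cells of 1 clone or of 1 mouse are not. Median depth in these classes was 6543, 5927, 5982 and 6000 UMIs, so the class with the highest share was also somewhat deeper than the others. The level of Cxcr3 in these classes was 79.95, 27.1, 11.8 and 8.32 CPM. Cells without a recorded receptor stood at 9.64% (6.27 to 14.0), which is 24 of 249.

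The positive cells of large clones came from several of them. The 171 positive cells belonged to 109 clones, of which 97 had 1 positive cell, 12 had 2 or more and 4 had 5 or more. Clone 1, with 514 cells in the cluster, had 25 positive cells (4.86%, 3.17 to 7.10) and clone 2, with 489 cells, had 10 (2.04%, 0.98 to 3.73). Clone 3 had 7 of 207 cells (3.38%, 1.37 to 6.84) and clone 4 had 13 of 193 (6.74%, 3.63 to 11.2). All 4 intervals overlap, those of clones 2 and 4 only barely. Overlap of separate intervals does not show that shares are alike, and whether the clones differ was not tested. The 7 smaller clones with at least 20 cells ranged from 0 of 28 cells in clone 10 to 3 of 20 cells in clone 11, where the count of 0 allows a share of up to 12.3% by the exact interval.

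**Figure D2:**
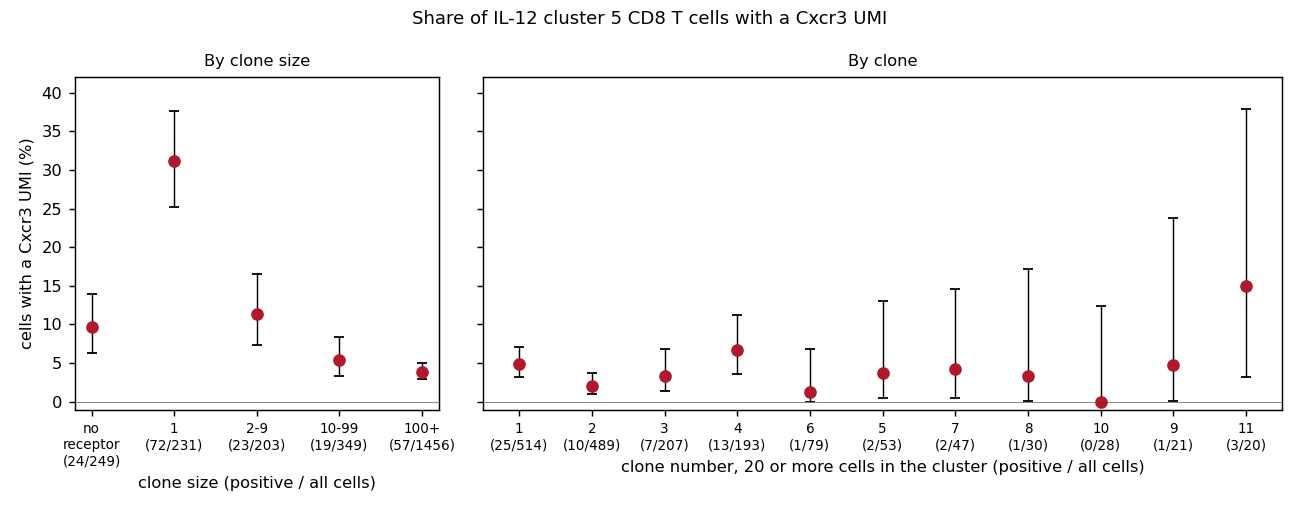
Share of cluster 5 CD8 T cells of the IL-12 library with a Cxcr3 UMI (%, y axis) by clone size class (left) and in each clone with at least 20 cells in the cluster (right); points are shares, whiskers exact 95% intervals, and the counts under each label are positive over all cells. Clones of 1 cell stand at 31.2% and clones of 100 or more at 3.91%, while the large clones overlap one another.

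Cytotoxic genes were lower in the positive cells for a part of that list. Of 6443 genes measured (at least 50 UMIs over both sets and a UMI in 5% of the cells of either), 158 were lower (2.45%) and 117 higher (1.82%). The median log2 ratio over all of them was 0.00. Of 16 measured cytotoxic effector genes, 8 were lower and 1 was higher, with a median of -0.49. Besides the genes below, the lower ones were Nkg7, a granule protein, Cst7, an inhibitor of granule proteases, and Tnf, the gene of tumour necrosis factor, at 1.66-fold (1.60 to 1.72), 1.64-fold (1.46 to 1.85) and 2.45-fold lower (1.41 to 4.59), picked out after their values were seen. Prf1, which encodes the pore-forming protein perforin, had 131 UMIs in positive and 1912 in matched negative cells, or 93.7 CPM in positive against 342.0 in negative cells, a 3.65-fold lower level (3.06 to 4.39). A Prf1 UMI was seen in 25.1% of positive and 60.4% of negative cells, against 2.57% of neutrophils, so the sets differed in how many cells had the transcript as well as in the sum.

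The granzymes, proteases that perforin lets into target cells, did not move together. Gzmc stood at 20.7 CPM in positive against 147.8 in negative cells, 7.12-fold lower (4.92 to 10.7), but its UMIs came from 6.15% of positive and 10.9% of negative cells. Gzmd and Gzme were 2.56-fold (2.05 to 3.23) and 2.40-fold lower (1.92 to 3.03), again from few cells (4.10% of positive cells each), and with 1 negative cell per positive cell the log2 ratio of Gzme, -1.14, was -0.18. Gzmb, the main granzyme of cytotoxic T cells, stood at 1014 CPM in positive against 1549 in negative cells, 1.53-fold lower (1.44 to 1.62). Its log2 ratio of -0.61 was -0.43 in the 151 cells with CD8 transcripts alone, -0.42 without the largest clone, -0.57 scaled to the table's UMIs and -0.17 without possible doublets, none of which passes the fold. Gzma was at 778.3 CPM in positive against 755.1 in negative cells, 1.03-fold (0.963 to 1.102), and in the 151 cells at 853.4 CPM in positive against 436.0 in negative cells. Gzmk, a granzyme of memory-like and early effector CD8 cells, was the member that was higher, at 186.7 CPM in positive against 93.4 in negative cells, 1.999-fold (1.72 to 2.32). Gzmb, Gzmc, Gzmd and Gzme lie together on the minus strand of mouse chromosome 14, Gzme from 56117626 to 56120625 and Gzmb from 56258838 to 56262260 in mm10. Of the 60-base stretches of Gzmd and Gzme, 14.6% and 12.6% occur in other granzyme genes, so the counts of these close copies are uncertain.

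Cytokine and chemokine transcripts were lower as well. Ifng, the gene of interferon-gamma, stood at 107.3 CPM in positive against 296.3 in negative cells, 2.76-fold lower (2.33 to 3.29), with a UMI in 29.2% of positive and 50.1% of negative cells. Of the 60-base stretches of Ifng, 18.5% overlap the annotated gene Gm49751. Of 5 measured chemokines that T cells make, 4 were lower and 1 higher, with a median of -1.40. The higher one, Xcl1, was at 62.9 CPM in positive against 38.5 in negative cells, picked out after its value was seen. Ccl3 and Ccl4, inflammatory chemokines of activated T cells, were 3.50-fold (2.599 to 4.81) and 2.82-fold lower (2.35 to 3.40). Ccl5, a chemokine and an abundant transcript of these cells, was at 3947 CPM in positive against 7196 in negative cells, 1.82-fold lower (1.77 to 1.88), and Ccl9 had 3 UMIs in positive against 153 in negative cells, 12.8-fold lower (4.28 to 62.5). The log2 ratio of Ccl9, -1.62, was -0.08 with 1 negative cell per positive cell. Neutrophil transcripts were lower in sum beside them: the 14 neutrophil markers summed to 397.7 CPM in positive and 653.3 in negative cells, with Mmp8 at 0 in positive cells. Of the 8 measured, 4 were lower (S100a8, S100a9, Cxcl2 and G0s2) and 1, Hdc, was 2.73-fold higher (1.63 to 4.52), and S100a8 was 2.13-fold lower (1.73 to 2.63). A further comparison left out cells that held at least 3 neutrophil markers and the deepest cells. The log2 ratio was then -0.25 for S100a8, -1.17 for Ccl3, -1.51 for Ccl4 and -0.89 for Ifng. Ccl3, Ccl4 and Ifng thus still passed the fold there. Cells with fewer neutrophil markers stayed in, and the part of neutrophil RNA in the differences was not tested. The cells left out, called possible doublets here, were 897 of the 2488 cells of the cluster, and 123 positive cells remained without them. In the whole CD8 T cell class of the library, which includes cells rich in neutrophil transcripts, Ccl3 stood at 0.68 and Ccl4 at 0.37.

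Several inhibitory receptors were lower, though not all. Of 12 measured exhaustion genes 5 were lower and none higher, with a median of -0.41. Lag3, an inhibitory receptor for MHC class II, stood at 329.8 CPM in positive against 693.0 in negative cells, 2.102-fold lower (1.91 to 2.32). Havcr2, which encodes TIM-3, was 2.43-fold lower (1.81 to 3.31), Entpd1, which encodes the ectonucleotidase CD39, 2.33-fold lower (1.88 to 2.92), and Nr4a2, a nuclear receptor induced by receptor signalling, 2.65-fold lower (2.14 to 3.33). The fifth, Cd244a, had 5 UMIs in positive against 59 in negative cells and was picked out after its values were seen. Pdcd1, the gene of PD-1, was at 625.2 CPM in positive against 801.3 in negative cells, which does not pass the fold. The authors' exhaustion score, for which the sources used here give no recipe, had a mean of -0.102 in 168 positive and 0.029 in 692 matched negative cells of the receptor table (SD over cells 0.165 in positive and 0.175 in negative cells). In clones of 1 cell the means were nearly level, at -0.149 in 71 positive and -0.139 in 142 negative cells, and in clones of 100 or more they were -0.056 in 57 positive and 0.0634 in 223 negative cells. Tnfrsf9, which encodes the costimulatory receptor 4-1BB, was 1.95-fold lower (1.80 to 2.12).

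Irf8, an interferon-induced transcription factor that effector CD8 T cells also use, was among the lowest of well-measured genes. It had 171.7 CPM in positive against 607.7 in negative cells, 3.54-fold lower (3.10 to 4.05), and a UMI in 37.9% of positive and 66.9% of negative cells. The other ranked genes at the low end, among those with at least 200 UMIs, were Tff1, Serpine2, Nrn1, Cd200, Myo10, Calca and Gldc, from 7.16-fold (4.22 to 13.2) for Tff1 to 3.09-fold lower (2.11 to 4.68) for Gldc. Nrn1 encodes neuritin, Cd200 a ligand of an inhibitory receptor on myeloid cells, Serpine2 a protease inhibitor and Myo10 an unconventional myosin.

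Genes of naive, stem-like and memory T cells were higher. Of 16 measured members of that list 7 were higher and 1 lower, with a median of 0.48, Eomes being the lower one. Ccr7, the receptor that guides T cells to lymph nodes, had 133.8 CPM in positive against 46.7 in negative cells, 2.86-fold higher (2.36 to 3.47), and a UMI in 23.1% (17.4 to 29.6) of positive and 7.31% (5.58 to 9.36) of negative cells. Tcf7, which encodes TCF-1, the transcription factor of stem-like and memory T cells, had 63 UMIs in positive against 66 in negative cells, 3.82-fold higher by CPM (2.66 to 5.47), and a UMI in 19.0% of positive and 4.49% of negative cells. In neutrophils, 1.13% of cells had a Ccr7 UMI and 0.29% a Tcf7 UMI. Slamf6, a surface receptor often seen with TCF-1, had 32 UMIs in positive against 27 in negative cells and was 4.74-fold higher (2.75 to 8.22). Ly6c2, a surface marker of central memory and activated CD8 T cells, was at 616.6 CPM in positive against 311.5 in negative cells, 1.98-fold higher (1.82 to 2.15). Ly6c1 was 2.26-fold higher (2.09 to 2.44), and 27.1% of its 60-base stretches occur in Ly6c2 or Ly6a, so these counts may be split between copies. Of the 37 positive cells with a Tcf7 UMI, 17 had a Ccr7 UMI, 31 a Ly6c2 UMI, 31 a Cd8a UMI and none a Foxp3 UMI. Ccr7 differed in this: of the 45 positive cells with a Ccr7 UMI, 33 had a Cd8a UMI and 12 a Foxp3 UMI.

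Genes of cell trafficking were higher in part. Of 7 measured chemokine receptors 3 were higher and none lower: Ccr7, Cxcr4, the receptor for CXCL12, at 2.48-fold (2.01 to 3.07), and Ccr2, a receptor for CCL2, at 1.77-fold (1.50 to 2.08). With all cells thinned to 1000 UMIs the log2 ratio of Cxcr4, 1.14, was 0.39. Cxcr6, a receptor of effector and tissue-resident T cells, was within 1.5-fold, at 618.0 CPM in positive against 802.7 in negative cells. Of 14 measured adhesion and migration genes 3 were higher (Klf2, S1pr1 and Itgb7) and 1 lower (Itgb2), with a median of 0.13. Klf2, a transcription factor that keeps T cells circulating, was 2.86-fold higher (2.32 to 3.52) and its target S1pr1, the receptor for egress from tissues, had 47 UMIs in positive against 33 in negative cells, 5.69-fold higher (3.57 to 9.18). A Klf2 UMI was seen in 27.7% of positive and 12.8% of negative cells, and in 48.5% of neutrophils, so neutrophil RNA also carries Klf2, and its part here was not tested. Itgb7, an integrin chain, was 2.36-fold higher (1.93 to 2.88), while Itgb2, the common chain of the leukocyte integrins, was 1.66-fold lower (1.43 to 1.93), a call lost without possible doublets (log2 ratio -0.56) and in 3 further alternatives. Emb, an adhesion-related membrane protein, was at 386.3 CPM in positive against 156.9 in negative cells, 2.46-fold higher (2.21 to 2.74), and had a UMI in 68.2% of positive and 41.8% of negative cells.

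Genes of the signalling path below CXCR3 stood close to level. Of 18 measured G protein, arrestin, kinase and regulator genes, 1 was lower and none higher, with a median of -0.07. The lower one was Rgs16, a brake on G protein signalling, at 1.90-fold lower (1.67 to 2.18). Rgs10, which was not on that list and acts in the same way, was 3.05-fold higher (2.42 to 3.84). In the IL-12 and IL-18 pathway, Il18r1, a chain of the IL-18 receptor, was 1.85-fold higher (1.43 to 2.36), while Eomes and Tbx21, the T-box factors of cytotoxic cells, were 2.01-fold (1.45 to 2.87) and 1.70-fold lower (1.24 to 2.37). With 1 negative cell per positive cell none of these 3 passed the fold, at log2 ratios of 0.42, -0.45 and -0.48. Il12rb2, a chain of the IL-12 receptor, had 15 UMIs in positive against 97 in negative cells, or 10.7 CPM in positive against 17.4 in negative cells, within 1.5-fold on the log2 scale. This list had 3 lower genes, Ifng among them, and 1 higher of 14 measured. The interferon-gamma response had 3 higher and 1 lower of 17, the lower being Irf8 and the higher Gbp2, Gbp3 and Iigp1, GTPases of cell-autonomous defence, at 1.92-fold (1.60 to 2.30), 1.82-fold (1.43 to 2.30) and 2.42-fold (1.47 to 3.91). The type I interferon response had 1 higher, Rtp4 at 1.61-fold (1.32 to 1.95), and none lower of 12. Of these 4 only Gbp2 passed the fold in the whole CD8 T cell class.

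Terminal effector genes were split. Of 10 measured 3 were lower, Zeb2 (2.14-fold, 1.60 to 2.92), Klre1 (2.29-fold, 1.74 to 3.06) and Id2, picked out after its value was seen (1.58-fold, 1.49 to 1.67), and 2 were higher, Klrg1 and Ly6c2. Of 10 measured costimulation and activation genes 2 were lower, Tnfrsf9 and Cd38, and 2 higher, Tnfrsf4 and Il2ra. Tnfrsf4, which encodes OX40, and Il2ra, the alpha chain of the IL-2 receptor, are both abundant in regulatory T cells. Tnfrsf4 was higher by 1.88-fold (1.60 to 2.21) and Il2ra by 1.66-fold (1.37 to 2.01). In the 151 cells with CD8 transcripts alone their log2 ratios turned to -0.74 and -0.43.

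**Figure D3:**
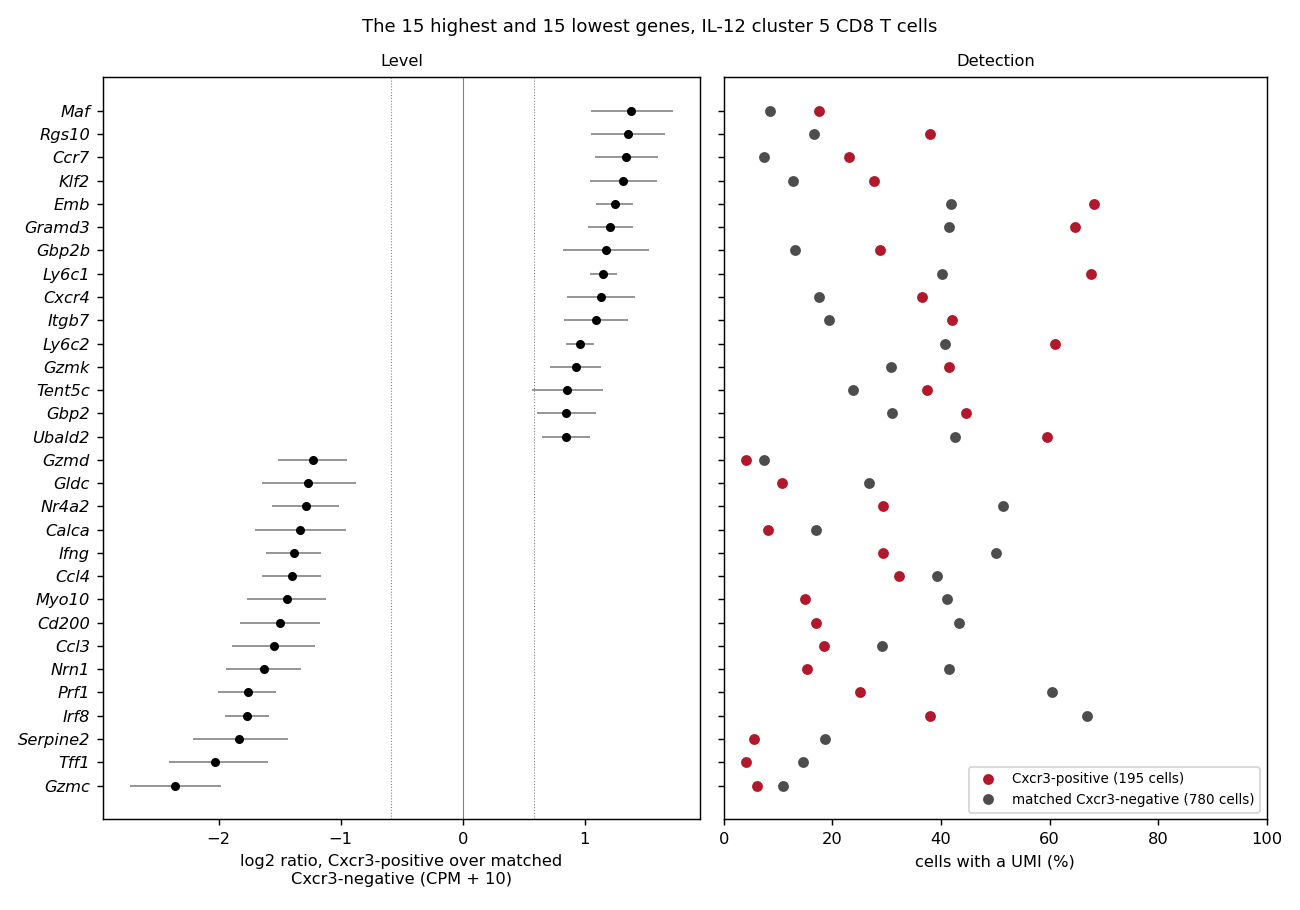
The 15 highest and 15 lowest of the genes with at least 200 UMIs: left, log2 ratio of Cxcr3-positive over matched negative cells (x axis, pseudocount 10 CPM) with exact 95% intervals and dotted lines at a fold of 1.5; right, share of cells with a UMI (%, x axis) in positive (red) and matched negative (grey) cells. Prf1 and Irf8 pair large ratios with detection in 25.1% of positive against 60.4% of negative cells for Prf1 and 37.9% of positive against 66.9% of negative cells for Irf8, whereas Gzmc and Gzmd were seen in few cells of either set.

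Cell cycle genes differed little. Of 18 measured proliferation genes 2 were higher and none lower, Birc5 at 2.20-fold (1.62 to 2.97) and Hmgb2 at 1.59-fold (1.39 to 1.82), and 18.0% of the 60-base stretches of Hmgb2 occur in other annotated genes. Thinned to 1000 UMIs, the log2 ratios of Birc5 and Hmgb2 were 0.35 and 0.48, short of the fold. Mki67, a marker of cycling cells, was at 55.1 CPM in positive against 37.4 in negative cells, within 1.5-fold. By the authors' phase calls, 37.5% (30.2 to 45.3) of positive and 32.9% (29.5 to 36.6) of matched negative cells were in G2M, and 48.2% of positive and 50.6% of negative cells in S. The S shares were less even in clones of 2 to 9 cells, picked out after the values were seen. There they were 81.8% (59.7 to 94.8) of 22 positive and 45.1% (34.6 to 55.8) of 91 matched negative cells. In clones of 1 cell they were 45.1% and 42.3%, and in clones of 10 or more 41.3% and 51.0%. Dissociation stress genes, glycolysis genes and genes of T cell receptor signalling had no member past the fold, of 9, 13 and 16 measured.

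Genes of helper and regulatory T cells were higher beside these, in step with the Cd4 and Foxp3 cells described above. Of 6 measured members of that list 4 were higher (Foxp3, Cd4, Il2ra and Tnfrsf4) and none lower. Its 7 genes in the table summed to 920.6 CPM in positive against 649.7 in negative cells. Matched within clone size class, the median of the list turned to -0.17, Cd4 to -0.73, Il2ra to -0.25 and Tnfrsf4 to -0.082. Foxp3 had 84 UMIs in positive against 36 in negative cells, 9.33-fold higher (6.24 to 14.2). Maf, a transcription factor of helper and regulatory T cells and the highest of the genes with at least 200 UMIs, was at 77.3 CPM in positive against 23.4 in negative cells, 3.30-fold higher (2.53 to 4.29), but 17 of the 34 positive cells with a Maf UMI also had a Foxp3 UMI. Klrg1, a marker of terminal effector cells and of some regulatory T cells, was 3.94-fold higher (2.73 to 5.68).

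In the 151 positive cells with CD8 transcripts and no Cd4 or Foxp3, set against 604 matched cells of the same kind, 90 of 5928 measured genes were higher (1.52%) and 180 lower (3.04%). These are 151 of the same 195 cells in which the genes were ranked, so the direction of the ranked genes is no independent check. Of the 15 highest genes 13 were past the fold here, and of the 15 lowest all 15. Prf1 was 3.23-fold lower (2.66 to 3.95), Irf8 4.06-fold lower (3.44 to 4.83), Tcf7 6.26-fold higher (3.88 to 10.3) and Klf2 4.03-fold higher (3.07 to 5.30). Maf was no longer past the fold, at 18.6 CPM in positive against 14.6 in negative cells, and nor were Klrg1 with 6 UMIs in positive against 14 in negative cells, Ccr2 with a log2 ratio of 0.36, nor Tent5c at 0.37. The remaining NK cell, macrophage and dendritic cell markers summed to 1088, 574.4 and 815.5 CPM in all 195 positive cells and to 1218, 655.7 and 721.5 CPM in matched negative cells, with Klrb1c at 0 in positive cells and Flt3, Cd209a and Siglech at 0 in both. The part of such transcripts in the other differences was not tested.

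Since positive cells lay in smaller clones, the genes were next compared within clone size classes, which uses the same cells again and is no independent check. Within clones of 100 or more cells, 57 positive cells were set against 228 matched negative cells, and 109 of 3480 measured genes were higher (3.13%) and 221 lower (6.35%). In clones of 10 or more cells, the same comparison of 76 with 304 cells called 3.16% of 4179 genes higher and 5.14% lower, and 13 of 13 high and 15 of 15 low ranked genes had the same direction. Clone size was not level within that class, with a median of 286 cells for positive and 662 for matched negative cells. In clones of 100 or more, Prf1 stood at 66.1 CPM in positive against 361.6 in negative cells, 5.47-fold lower (3.67 to 8.53), and Gzmb at 288.2 CPM in positive against 1238 in negative cells, 4.30-fold lower (3.54 to 5.26). Irf8 was 3.51-fold lower (2.76 to 4.53), Ifng 2.25-fold lower (1.64 to 3.15) and Havcr2 4.66-fold lower (2.30 to 10.98). Several marker lists of other cells were lower in these positive cells too. The macrophage list summed to 261.8 CPM in positive against 725.1 in negative cells. In the same order, the neutrophil list summed to 454.8 against 861.9 CPM and the NK cell list to 290.9 against 660.3 CPM. The dendritic cell list summed to 520.9 against 662.3 CPM. The B cell list went the other way, at 68.8 against 9.25 CPM, as did the red cell list at 7.93 against 0 CPM. The mast cell list was level, at 42.3 against 41.0 CPM. Csf1r, Cxcr2 and Mmp9 were at 0 in these positive cells alone. Mmp8, Ncr1 and Klrb1c were at 0 in both sets, and the part of transcripts of other cells was not tested. Pdcd1 was level at 817.1 CPM in positive against 844.1 in negative cells. Ly6c2 was 1.97-fold (1.64 to 2.36), Emb 2.34-fold (1.80 to 3.02), Gzmk 1.73-fold (1.23 to 2.40) and Il18r1 2.12-fold higher (1.28 to 3.44). Of the ranked genes measured there, 14 of 14 low ones and 10 of 12 high ones had the same direction, Rgs10 and Itgb7 being the exceptions, and Foxp3 had no UMI in either set.

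Within clones of 1 cell, 72 positive cells were set against 144 matched negative cells, 2 per positive cell because negative cells were few, and 101 of 3043 measured genes were higher (3.32%) and 141 lower (4.63%). Prf1 was low there in both sets, at 63.4 CPM in positive against 87.4 in negative cells, and its interval includes no difference. Gzmb stood at 1252 CPM in positive against 1714 in negative cells, within 1.5-fold. Lag3 stood at 147.2 CPM in positive against 235.2 in negative cells, 1.60-fold lower (1.23 to 2.09). Irf8 stood at 63.4 CPM in positive against 238.1 in negative cells, 3.76-fold lower (2.62 to 5.55). Gzmk was 1.94-fold (1.51 to 2.50), Gramd3 1.997-fold (1.61 to 2.47) and Tcf7 2.54-fold higher (1.48 to 4.41), while Emb was level at 413.8 CPM in positive against 411.8 in negative cells. All 9 measured low genes and all 15 high genes had the same direction, 5 of each past the fold. Of the 72 positive cells, 45 had CD8 transcripts and no Cd4 or Foxp3, as did 99 of all 159 negative cells in clones of 1 cell. Helper and regulatory T cell genes summed to 1424 CPM in these positive and 1267 in the matched negative cells. For clones of 10 or more cells the sums were 493.0 and 617.6 CPM. Whether the ratios differ between clone size classes, and the part of such other T cells in them, was not tested.

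The 23 positive cells in clones of 2 to 9 cells had fewer UMIs and were the least alike to the whole set. Of the ranked genes measured there, 8 of 11 low genes and 6 of 9 high genes had the same direction, 8 and 2 of them past the fold. In that class 10.3% of all 1662 measured genes were lower and 4.63% higher by the same rule. Ifng was at 213.1 CPM in positive against 157.6 in negative cells there, and Lag3 at 438.8 CPM in positive against 433.4 in negative cells. With all receptor cells matched within their clone size class, 1 negative cell per positive cell, the log2 ratio was -1.44 for Prf1, -1.67 for Irf8, -0.97 for Ifng, 1.04 for Tcf7 and 0.72 for Gzmk. It was 0.47 for Ccr7, 0.41 for Klf2, 0.44 for S1pr1, 0.35 for Emb, 0.43 for Itgb7, 0.33 for Maf, 0.51 for Tent5c, -0.25 for Ccl5 and -0.53 for Rgs16, none of which passes the fold.

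**Figure D4:**
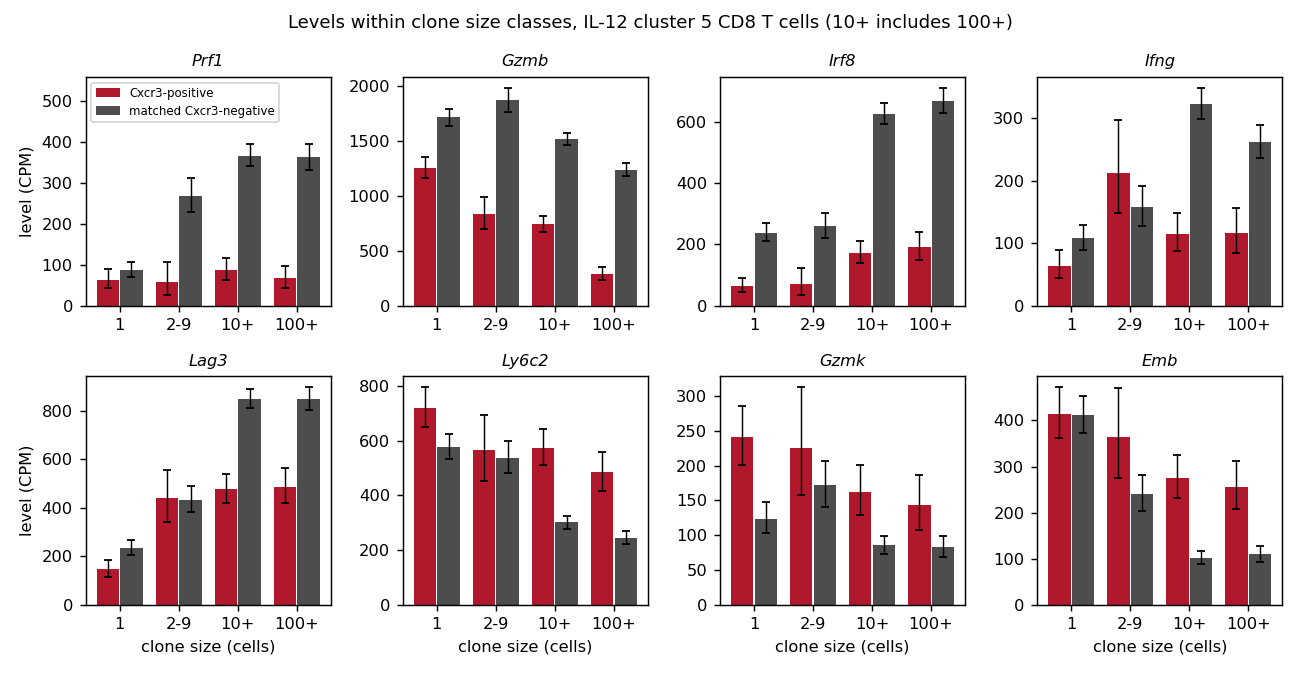
Levels (CPM, y axis) of 8 genes in Cxcr3-positive (red) and matched Cxcr3-negative (grey) cluster 5 CD8 T cells by clone size (x axis, the class of 10 or more including that of 100 or more); whiskers are exact 95% Poisson intervals of the summed UMIs. Prf1 stands at 66.1 CPM in positive against 361.6 in negative cells in clones of 100 or more cells but at 63.4 CPM in positive against 87.4 in negative cells in clones of 1 cell, while Irf8 is lower in positive cells of every class. The class of 1 cell includes cells with Cd4 or Foxp3 transcripts or without CD8 transcripts.

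The 4 clones with at least 5 positive cells were also taken one by one, against all their negative cells and without depth matching, for Prf1 and Gzmb. Within clone 1, the 25 positive cells had Prf1 at 49.0 CPM and Gzmb at 386.9 CPM, against 451.2 and 1991 CPM in its 489 negative cells. Within clone 4, the 13 positive cells had Prf1 at 36.0 CPM and Gzmb at 36.0 CPM, against 177.9 and 1121 CPM in its 180 negative cells. Within clone 2, the 10 positive cells had Prf1 at 178.4 CPM and Gzmb at 374.6 CPM, against 456.1 and 1351 CPM in its 479 negative cells. Within clone 3, the 7 positive cells had Prf1 at 66.4 CPM from 3 UMIs and Gzmb at 132.8 CPM, against 254.1 and 820.2 CPM in its 200 negative cells. The values of the positive cells were below those of the negative cells in all 4 clones. Those of clones 3 and 4 rest on very few UMIs, and no intervals are given for these levels. Ly6c2 did not follow one direction, with no UMI in the positive cells of clone 3 against 47.7 CPM in its negative cells, and 356.7 CPM in positive against 194.7 in negative cells of clone 2. Cd8a stood at 1003 CPM in positive against 1267 in negative cells in clone 1 and at 923.0 CPM in positive against 1058 in negative cells in clone 4. Median depth in clone 1 was 6810 UMIs in positive and 6973 in negative cells. In clone 4 it was 6802 UMIs in positive and 5531.5 in negative cells, which were thus shallower.

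The contrast was then made in 3 sets of cells that the rule did not use. Those of the IL-12 library come from the same pooled mice as cluster 5. Clone size is counted over that library, so large clones can lie in both, and these sets are no independent check. In the 72 positive CD8 T cells outside cluster 5 of the IL-12 library, against 288 matched negative cells, single-cell clones made up 43.1% (30.2 to 56.8) of positive and 11.5% (7.62 to 16.3) of negative receptor cells. Among the 99 positive cells of the CD4 T cell class of that library, against 396 matched cells, they made up 72.6% (60.9 to 82.4) of positive and 44.1% (37.6 to 50.8) of negative receptor cells. In the 33 positive CD8 T cells of the control library, against 132 matched cells, they made up 70.0% (45.7 to 88.1) of 20 positive and 29.8% (20.3 to 40.7) of 84 negative receptor cells. Positive cells thus came more often from single-cell clones in each set, and these intervals of positive and negative cells do not overlap. The CD4 class is the authors' label, and many of its cells had CD8 transcripts. A Cd4 UMI was seen in 15.2% of its positive and 13.4% of its matched negative cells, and a Cd8a UMI in 37.4% and 54.0%. Foxp3 was seen in 16.2% of these positive and 5.30% of these negative cells, so the sides also differed in cell type.

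The ranked genes mostly had the same direction in these sets. In CD8 T cells outside cluster 5, 15 of 15 high and 12 of 15 low genes did so, 6 and 11 past the fold, where 2.55% and 5.34% of 4661 measured genes were called higher and lower. Ccl3, Ccl4 and Ifng were the exceptions there, Ifng at 337.6 CPM in positive against 254.1 in negative cells, and S100a8 stood at 17233 CPM in positive against 15656 in negative cells, so these cells carried many neutrophil transcripts in both sets. In the CD4 class 15 of 15 high and all 11 measured low genes had the same direction, 10 and 9 past the fold, where 4.81% and 7.91% of 3074 genes were called. In the control library 12 of 13 high and 7 of 10 low genes did so, 11 and 7 past the fold, where 6.53% and 11.3% of 2480 genes were called, the exceptions being Tent5c, Gzmc, Ccl3 and Ccl4. About even shares of all measured genes lay in either direction in these sets, from 44.4% to 55.6%.

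Prf1 was lower in every set: 44.3 CPM in positive against 250.2 in negative cells outside cluster 5, 32.4 CPM in positive against 148.8 in negative cells in the CD4 class and 67.4 CPM in positive against 253.8 in negative cells in the control library, with 29, 10 and 13 UMIs in the positive cells. Gzmk was higher in every set, at 2.04-fold (1.54 to 2.69), 2.16-fold (1.60 to 2.89) and 2.67-fold (1.59 to 4.41). Gramd3, a membrane contact protein, was likewise higher, at 3.01-fold (2.42 to 3.74), 1.61-fold (1.28 to 2.005) and 2.38-fold (1.70 to 3.30). Tcf7 was 3.25-fold higher (2.28 to 4.61) in the CD4 class and 2.63-fold higher (1.48 to 4.58) in the control library. In the control library S100a8 stood at 8840 CPM in the 33 positive and 1847 CPM in the 132 matched negative cells, so that contrast also differed in neutrophil transcripts, whose part in it was not tested.

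**Figure D5:**
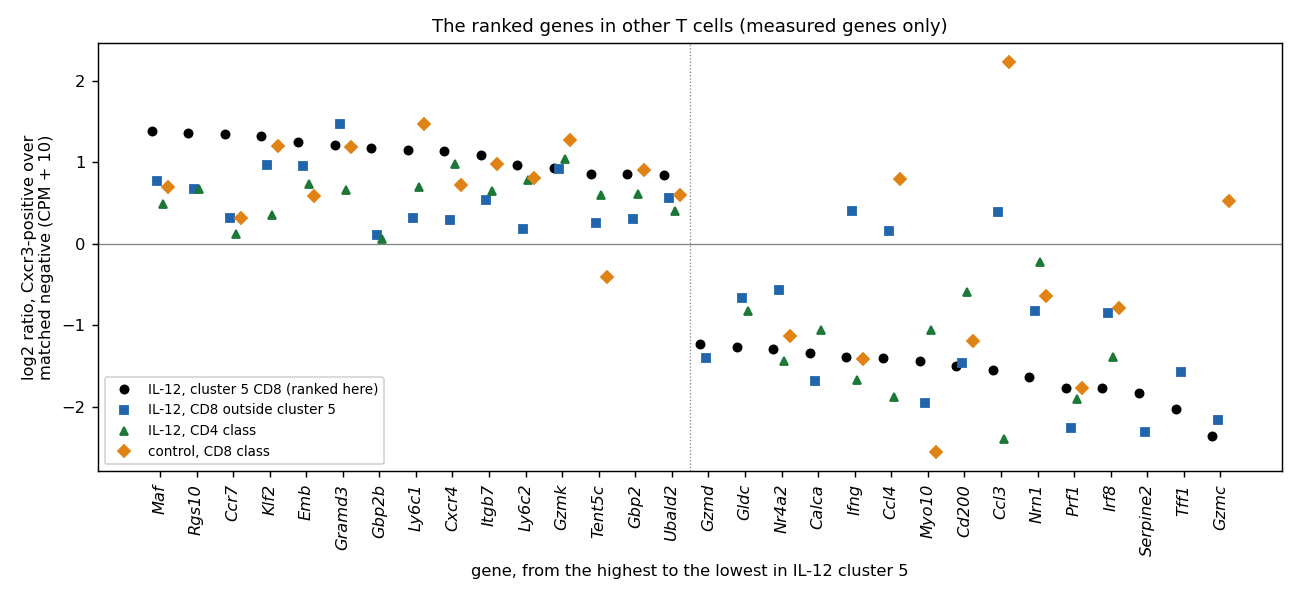
Log2 ratio of Cxcr3-positive over matched negative cells (y axis, pseudocount 10 CPM) for the 15 highest and 15 lowest genes of cluster 5 (x axis), in cluster 5, where they were ranked (black circles), and in 3 further sets of T cells; genes not measured in a set have no mark. Prf1 and Myo10 are below 0 in all 4 sets, Gzmk and Gramd3 above 0 in all 4, and Ccl3 and Ccl4 are above 0 in the control library and outside cluster 5.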

How the data were processed

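Gene expression was measured in sorted cells of 2 pools, 1 expression library per treatment. Tools named in the submitters' processing notes are STAR 2.6.1, Cell Ranger 2.1.0 and Partek, with mm10 as the build. Each expression table, as the authors deposited it, holds cells by 11407 genes in log2 of counts per 1000000 plus 1, a scale read from the values, with their classes, clusters and clonotypes. UMIs were recovered by undoing the logarithm and taking a cell's smallest value as 1 UMI: all but 13 of 13883686 IL-12 and 6 of 4251108 control values were whole within 0.1. The deposited receptor table holds score values and a mitochondrial percent per cell, computed by steps that no source used here records; the scores are only described, and the mitochondrial percent in the text comes from the expression table. The IL-12 library held 59956933 UMIs (766 to 19603 per cell) and the control library 17306854.

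Positive cells were each matched to 4 negative cells by UMI total. With 1 library per group no test was made. Shares have exact Clopper-Pearson 95% intervals and folds exact conditional binomial ones. Clone size is the number of cells of the library with the same clonotype. Genes named are the 15 highest and 15 lowest with at least 200 UMIs, up to 4 of each of 25 lists and a few in any case, 103 in all. A gene was measured with at least 50 UMIs and a UMI in 5% of the cells of either set. The members and lists were chosen with earlier results of these data known. On simulated data 96.2% of 6625 intervals held the true fold. The simulated cells shared 1 profile apart from the set folds and varied by counting error only, as the intervals assume. The figure therefore cannot show how the intervals fare for real cells, which also differ by clone and cell type. Some named genes are not reported here. Doublets were left in, and leaving out possible ones (897 of 2488 cluster 5 cells) was treated as an alternative. Coordinates and shared 60-base stretches come from the GENCODE annotation of the same build. Python 3.11.15, numpy 2.4.6, scipy 1.17.1, pandas 2.3.3 and matplotlib 3.10.9 were used.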

Additional observations from a re-analysis of the deposited data

Results flagged for a closer look

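For 7 named genes the log2 ratio of Cxcr3-positive over matched negative CD8 T cells passed the fold in opposite directions in the IL-12 and control libraries. The sets were unlike: cluster 5 in the IL-12 library and the whole CD8 T cell class in the control library. The difference was not tested. S100a8 stood at -0.99 in the IL-12 and 2.25 in the control library, S100a9 at -0.74 and 1.57, Cxcl2 at -0.70 and 0.79, and Hdc at 0.79 and -0.83, all of them neutrophil markers. Ccl3 stood at -1.55 in the IL-12 and 2.23 in the control library and Ccl4 at -1.40 and 0.79. Cd4 stood at 0.73 in the IL-12 and -0.67 in the control library, there from 9 UMIs in positive and 62 in matched negative cells. Taken over the whole CD8 T cell class of the IL-12 library, Ccl3 (0.68), Ccl4 (0.37), Cxcl2 (0.44), S100a8 (0.28) and S100a9 (0.22) had the sign seen in the control library. Hdc and Cd4 kept their cluster 5 sign there.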

How the results depend on the processing

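The expanded-clone difference kept its sign under every alternative, and its size moved only with at least 2 Cxcr3 UMIs, to -51.9 points. The difference of median clone sizes, -281 cells, also kept its sign under every alternative. It was -204 cells with clone size counted over the CD8 T cells of cluster 5. With 1-chain clonotypes joined to 2-chain ones it was -805 cells (78 clonotypes with 500 cells, added after seeing the data). The positive share was 2.05% and 4.52% of cells thinned to 1000 and 3000 UMIs. Genes called higher and lower, 117 and 158, numbered 202 and 341 with at least 2 Cxcr3 UMIs, 334 and 426 with a pseudocount of 1 CPM, 49 and 96 with at least 200 UMIs, and 20 and 32 at a fold of 2. Matching within clone size class gave 65 higher genes, scaling to the table's UMIs 223 higher, and the whole CD8 class 104 lower.

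Of 64 named genes past the fold, 59 to 64 kept their sign under each alternative. From 38 to 63 still passed the fold, fewest when matched within clone size class. Both ranges leave out the limits of 10 and 200 UMIs and the pseudocount of 1 CPM, which could not take a gene out of these counts. These log2 ratios reversed: Gbp3 to -0.28 (thinned); Cd4 to -0.73, Il2ra to -0.25, Tnfrsf4 to -0.082, Tbx21 to 0.00063 and the helper and regulatory T cell list to -0.17 (within clone size class). Without possible doublets, Hdc was -0.0695 and S100a9 0.0443. In the whole CD8 class, Ccl3 was 0.68, Ccl4 0.37, Cxcl2 0.44, S100a8 0.28, S100a9 0.22 and the chemokine list 0.17. In cells with CD8 transcripts alone, Il2ra was -0.43, Tnfrsf4 -0.74 and the helper and regulatory list -0.44. The causes were not tested. Leaving out barcodes shared between libraries reversed none. No paired analysis was possible because each treatment has 1 expression library. Replicates could not be left out for the same reason. Depth limits genes seen in few cells, such as Slamf6 and S1pr1.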
